A study of Mus musculus with 24 samples.

Results

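Refed control liver was set against fasted control liver by ChIP-seq of H3K27ac, the acetylated form of a lysine in the tail of histone H3 that marks active promoters and enhancers. The comparison uses the 3 control refed and the 3 control fasted H3K27ac libraries, 6 of the 24 samples of the series, over all 63686 regions of the authors' table. The other samples are 6 H3K27ac libraries of Gata4 knockout liver, which enter the shared estimate of the spread and a last comparison, and 12 input libraries, which are not analysed here. All mice were male C57BL/6J with Gata4 fl/fl, a floxed gene for a zinc-finger transcription factor of hepatocytes. The controls received an empty AAV8 and the knockouts AAV8-Tbg-Cre, in which the hepatocyte promoter Tbg drives Cre recombinase, so the control mice too carry the floxed gene and a viral vector. Vectors were given at 8 weeks of age and livers were taken 7 days later, at 9 weeks. Refed mice fasted for 12 h during the day and then ate a diet of 69% sucrose and 10% fat for 12 h overnight. Fasted mice fasted for 12 h overnight, and every mouse was killed in the same hour of the morning. The hour at which the groups fasted therefore differs, there is no group refed on another diet, and feeding, sucrose and a daytime fast cannot be told apart. The labels give all libraries of a group the same number, with a letter for each, so an effect of housing or litter may lie in the group, and p-values measure only the spread between these libraries, which may be technical.

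In the fasted liver, glucagon, glucocorticoids and falling insulin favour glucose production, fatty acid oxidation and ketone body formation, with PPARα, CREB, FOXO1 and the glucocorticoid receptor acting on the genes. After a meal rich in sugar, insulin and sugar metabolites act through SREBP-1c, ChREBP and LXR on genes of glycolysis and fatty acid synthesis, and SREBP-2 governs cholesterol synthesis. The hepatic clock follows the hours of feeding as well as light, and the endoplasmic reticulum of a fed liver takes up a larger load of secreted protein. In whole tissue, a change in the share of a cell type and a change of the mark within its cells cannot be told apart.

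Promoters of 7 genes are shown because the region over the start site of each changed with refeeding and because the letters in front of the start hold a motif that was searched. Each run is the 250 bases before the start, from RefSeq on GRCm38.p6, and positions count back from the start in the printed strand, to the leftmost base of the motif. A motif on the opposite strand appears as its reverse complement, so CCAAT is then printed as ATTGG and TGACG as CGTCA. The capitals mark CCAAT, the box bound by NF-Y, at -90, -62 and -59 in front of Fasn, fatty acid synthase (chr11:120824548-120824797, minus strand), and at -62 in front of Lss, lanosterol synthase of cholesterol synthesis (chr10:76531355-76531604, plus strand).
Fasn: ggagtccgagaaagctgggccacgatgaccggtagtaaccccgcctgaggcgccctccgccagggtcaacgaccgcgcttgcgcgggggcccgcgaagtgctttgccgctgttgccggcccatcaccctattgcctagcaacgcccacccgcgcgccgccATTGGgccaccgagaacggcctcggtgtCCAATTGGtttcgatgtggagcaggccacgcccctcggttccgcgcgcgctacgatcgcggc
Lss: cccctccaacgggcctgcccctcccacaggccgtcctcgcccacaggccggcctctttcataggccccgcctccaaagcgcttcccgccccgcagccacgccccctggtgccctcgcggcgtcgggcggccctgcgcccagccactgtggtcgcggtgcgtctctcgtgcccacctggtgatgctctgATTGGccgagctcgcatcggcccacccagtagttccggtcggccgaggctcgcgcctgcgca

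The capitals in the next pair mark the ER stress response element, CCAAT and CCACG with 9 bases between them, a site of ATF6 and XBP1 that holds a CCAAT box by construction. It starts at -65 in front of Hspa5, the ER chaperone BiP (chr2:34771840-34772089, plus strand), and at -162 in front of Calr, the chaperone calreticulin (chr8:84846932-84847181, minus strand).
Hspa5: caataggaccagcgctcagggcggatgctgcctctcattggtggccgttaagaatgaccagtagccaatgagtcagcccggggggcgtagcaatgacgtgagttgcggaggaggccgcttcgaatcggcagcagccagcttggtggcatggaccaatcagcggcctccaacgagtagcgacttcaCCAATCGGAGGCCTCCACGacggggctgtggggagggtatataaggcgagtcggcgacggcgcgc
Calr: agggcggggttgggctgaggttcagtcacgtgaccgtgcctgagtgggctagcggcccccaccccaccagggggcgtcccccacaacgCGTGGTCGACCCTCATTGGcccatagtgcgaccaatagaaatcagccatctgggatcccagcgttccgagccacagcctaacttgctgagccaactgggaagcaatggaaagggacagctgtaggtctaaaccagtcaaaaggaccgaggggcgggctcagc

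The capitals then mark CACGTG, the E-box bound by CLOCK and BMAL1, at -60 in front of the clock repressor Cry1 (chr10:85185055-85185304, minus strand) and at -116, -58 and -44 in front of the clock repressor Ciart (chr3:95882229-95882478, minus strand). In front of Pck1, the gluconeogenic enzyme PEPCK (chr2:173152823-173153072, plus strand), they mark TGACG at -90, the core of the cAMP response element TGACGTCA.
Cry1: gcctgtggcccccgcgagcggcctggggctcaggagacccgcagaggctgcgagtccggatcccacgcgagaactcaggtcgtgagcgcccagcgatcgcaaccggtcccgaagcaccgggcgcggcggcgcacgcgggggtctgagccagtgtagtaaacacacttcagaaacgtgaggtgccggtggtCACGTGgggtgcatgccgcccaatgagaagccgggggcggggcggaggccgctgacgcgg
Ciart: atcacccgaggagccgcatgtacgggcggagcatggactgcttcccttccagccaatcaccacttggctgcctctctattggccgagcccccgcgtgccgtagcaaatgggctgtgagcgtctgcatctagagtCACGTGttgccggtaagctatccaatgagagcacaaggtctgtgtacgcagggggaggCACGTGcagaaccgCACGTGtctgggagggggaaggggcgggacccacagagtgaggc
Pck1: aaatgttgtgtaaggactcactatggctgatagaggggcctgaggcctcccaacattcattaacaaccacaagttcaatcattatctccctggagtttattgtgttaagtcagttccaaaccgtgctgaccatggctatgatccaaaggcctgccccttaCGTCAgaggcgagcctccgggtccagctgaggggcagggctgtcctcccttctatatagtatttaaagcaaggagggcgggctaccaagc

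Searched on both strands of the same 250 bases, at least 1 CCAAT lay in 33.8% of all 32851 promoter entries, CACGTG in 6.02%, TGACG in 17.8% and the ER stress response element in 0.113%. Counted per gene, CCAAT was found in front of 16 of the 18 cholesterol synthesis genes with an entry (88.9%), against 37.5% of all genes. The SRE core TCACNCCAC, a site of SREBP, was found in front of 0 of these 18 and of 1 of 18 fatty acid synthesis genes (Mlxipl), against 1.22% of all genes, which says only that these letters are not in the other windows. The ER stress response element was found in front of 8 of 20 genes of the unfolded protein response (40%), against 0.13% of all genes. TGACG was found in front of 12 of 16 fasting regulators, against 19.8% of all genes. CACGTG was found in front of 8 of 23 genes of autophagy and the lysosome and of 3 of 15 core clock genes (Per1, Cry1 and Ciart), against 6.86% of all genes. Every group was searched for every motif, and only some pairs are given. CACGTG also lay in front of 5 of 18 cholesterol synthesis and 5 of 21 glycolysis genes, but of 1 of 30 fatty acid oxidation genes. CCAAT also lay in front of 8 of 11 gluconeogenesis genes and 6 of 8 of the Cyp4a and Cyp4f group, but of 5 of 17 triglyceride genes. These matches are a description of letters and not of binding. The regions over the starts of Fasn, Lss, Hspa5, Calr and Cry1 rose with refeeding, and those over Ciart and Pck1 fell. Genes whose start region rose and genes whose start region fell held CACGTG about as often (10.3% of 1738 and 10.9% of 525), as they did CCAAT (41% and 41.5%). TGTTTAC, a FOXO and FOXA site, stood in front of 2.36% of the risen, 5.33% of the fallen and 2.91% of the genes not called. The GATA site AGATAA parted in the same direction (6.39%, 9.9% and 7.2%) and TGACG in the other (31.2%, 26.3% and 30.1%). None of these differences was tested.

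The 6 control libraries held 22.2 to 30.4 M reads in regions, and feeding state separated all 12 H3K27ac libraries along the first principal component, with 47.3% of the variance. Values are normalized reads in a region, and every library was scaled by the authors to the same total, so a change of the whole mark cannot be seen. Each change is the log2 ratio of refed to fasted liver on log2(value + 1), with its SE from limma and the Benjamini-Hochberg adjusted p over all regions. A region rose or fell where this p was under 0.05, and the median SE was 0.24. A region is named by the gene with the nearest start site in the HOMER annotation on mm9, which does not show that it regulates that gene, and a gene is represented by its region with the highest mean. Hepatocyte markers spread widely when ranked per kb of region among all genes. In refed liver they lay from percentile 37.8 (Serpina1a) to 96.7 (Asgr1), with Alb at 68.7. In fasted liver they lay from percentile 53.5 (Serpina1b) to 96.4 (Ahsg), with Alb at 83.9. The summed level of 13 hepatocyte markers was 67161 to 74126 in refed and 67781 to 76778 in fasted libraries.

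Refeeding changed the mark at about 3 in 10 regions of control liver (19083 of 63686, 30%). It rose at 8378 regions (13.2%) and fell at 10705 (16.8%), and the falls were larger, with a median of -1.09 on the log2 scale against 0.77 for the rises. More than 2-fold changes were 3142 rises and 5909 falls, and more than 4-fold changes 1109 rises and 1899 falls. In 96.1% of the called regions the 3 refed libraries all lay on one side of the 3 fasted libraries, and over all regions the refed libraries lay above in 19.1% and below in 23.3%. Among the 16315 genes with a region, the representing region rose in 3465 (21.2%) and fell in 1987 (12.2%), with a median change of 0.11, and every gene group below is read against these shares. Taking all its regions, 5059 genes had one that rose, 4709 had one that fell and 1304 had both. In the authors' deposited table an adjusted p for this comparison is given for 20390 regions, of which 81.0% were called here.

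Rises and falls lay in different places. Of the 12381 regions that span their nearest start site, 21.6% rose and 7.15% fell, whereas of the 51305 that do not, 11.1% rose and 19.1% fell. Within 1 kb of a start site 19.6% rose and 3.52% fell, and from 5 to 20 kb away 10.8% rose and 20.2% fell. Among regions at or above the median level 23.1% of those over a start rose and 7.44% fell, against 18.3% and 25.2% of the others. Regions over 10 kb wide, which hold the most reads, were called most often (24.2% rose, 32.2% fell), and those up to 500 bp wide least often (2.94% and 9.00%). The 5292 regions with a GATA4 peak in the authors' annotation rose in 15.4% and fell in 14.8% of cases.

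**Figure D1:**
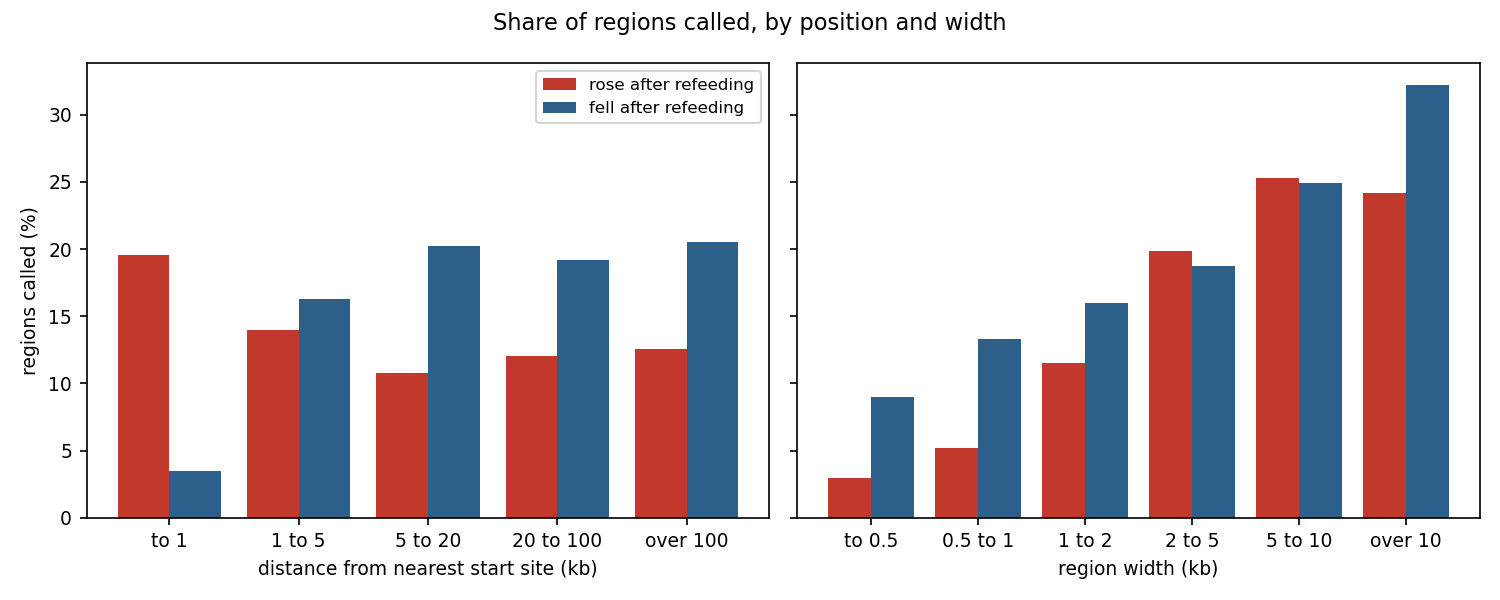
Share of regions called higher (red) or lower (blue) in refed than in fasted control liver, in percent of the regions of each class, by distance from the nearest start site (left, kb) and by width (right, kb). Within 1 kb of a start site 19.6% rose and 3.52% fell, and the order is turned from 1 kb outwards.

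Most lipogenic genes rose. Of 20 measured genes of fatty acid synthesis 17 rose and none fell, with a median change of 0.85. Over all 93 regions of these genes 49 rose and 18 fell. Among them, Acaca had 5 regions that rose and 6 that fell, and Elovl6 had 3 and 4. Over Scd1, stearoyl-CoA desaturase, a region of 25574 bp (mm9 chromosome 19, 44472415 to 44497988) held 5932, 5981 and 6232 normalized reads in refed livers, against 820, 668 and 519 in fasted livers (3.20 ± 0.15, adjusted p = 5.96e-09). All 6 regions assigned to Scd1 rose. Fasn held 7230, 7752 and 7709 in refed livers, against 4166, 4134 and 3970 in fasted livers (0.89 ± 0.05, adjusted p = 3.12e-08). Srebf1, the gene of SREBP-1, held 4990, 5355 and 5109 in refed livers, against 2711, 2609 and 2143 in fasted livers (1.06 ± 0.10, adjusted p = 2.99e-06). At each of these genes the 2 groups stayed well apart and the 3 refed libraries lay close to each other. The acetyl-CoA carboxylases Acacb (1.91) and Acaca (1.43), acetyl-CoA synthetase Acss2 (1.45), the lipogenic regulator Thrsp (1.18), the citrate carrier Slc25a1 (0.79), ATP citrate lyase Acly (0.69) and the elongase Elovl6 (0.46) rose as well. The lipases Pnpla3 (3.93) and Pnpla5 (6.93) had the largest changes of the group. The intronic Pnpla5 region held 552, 562 and 541 in refed livers, against 9.15, 8.27 and 0 in fasted livers. Mlxipl, the gene of ChREBP, changed by 0.28 (adjusted p = 0.0718) and Nr1h3, the gene of LXRα, by -0.05, and neither was called.

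Many genes of sugar breakdown rose as well. Of 23 genes of glucose uptake and glycolysis 14 rose and 3 fell, with a median of 0.40. Pklr, liver pyruvate kinase, held 3417, 3388 and 3271 in refed livers, against 1372, 1517 and 1388 in fasted livers (1.24 ± 0.07, adjusted p = 1.81e-08). Ketohexokinase Khk, the first enzyme of fructose use, rose by 0.61 and phosphoglucose isomerase Gpi1 by 0.96. Slc2a5, a fructose transporter, fell by 0.76, and the bifunctional regulators Pfkfb1 and Pfkfb2 fell by 0.60 and 1.07. Of 11 genes of the pentose phosphate pathway and NADPH supply 6 rose and 2 fell (1 fell without refed library 3 or with the region nearest the start). Ribose-5-phosphate isomerase Rpia held 2613, 2475 and 2569 in refed livers, against 663, 719 and 746 in fasted livers (1.85 ± 0.08, adjusted p = 3.28e-09), and phosphogluconate dehydrogenase Pgd rose by 1.41. Glycogen genes went both ways, 3 of 14 up and 4 down. Glycogen phosphorylase Pygl (1.19) and the phosphatase subunit Ppp1r3b (0.83) rose, whereas glycogen synthase Gys2 (-0.54) and the subunit Ppp1r3g (-2.13) fell.

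**Figure D2:**
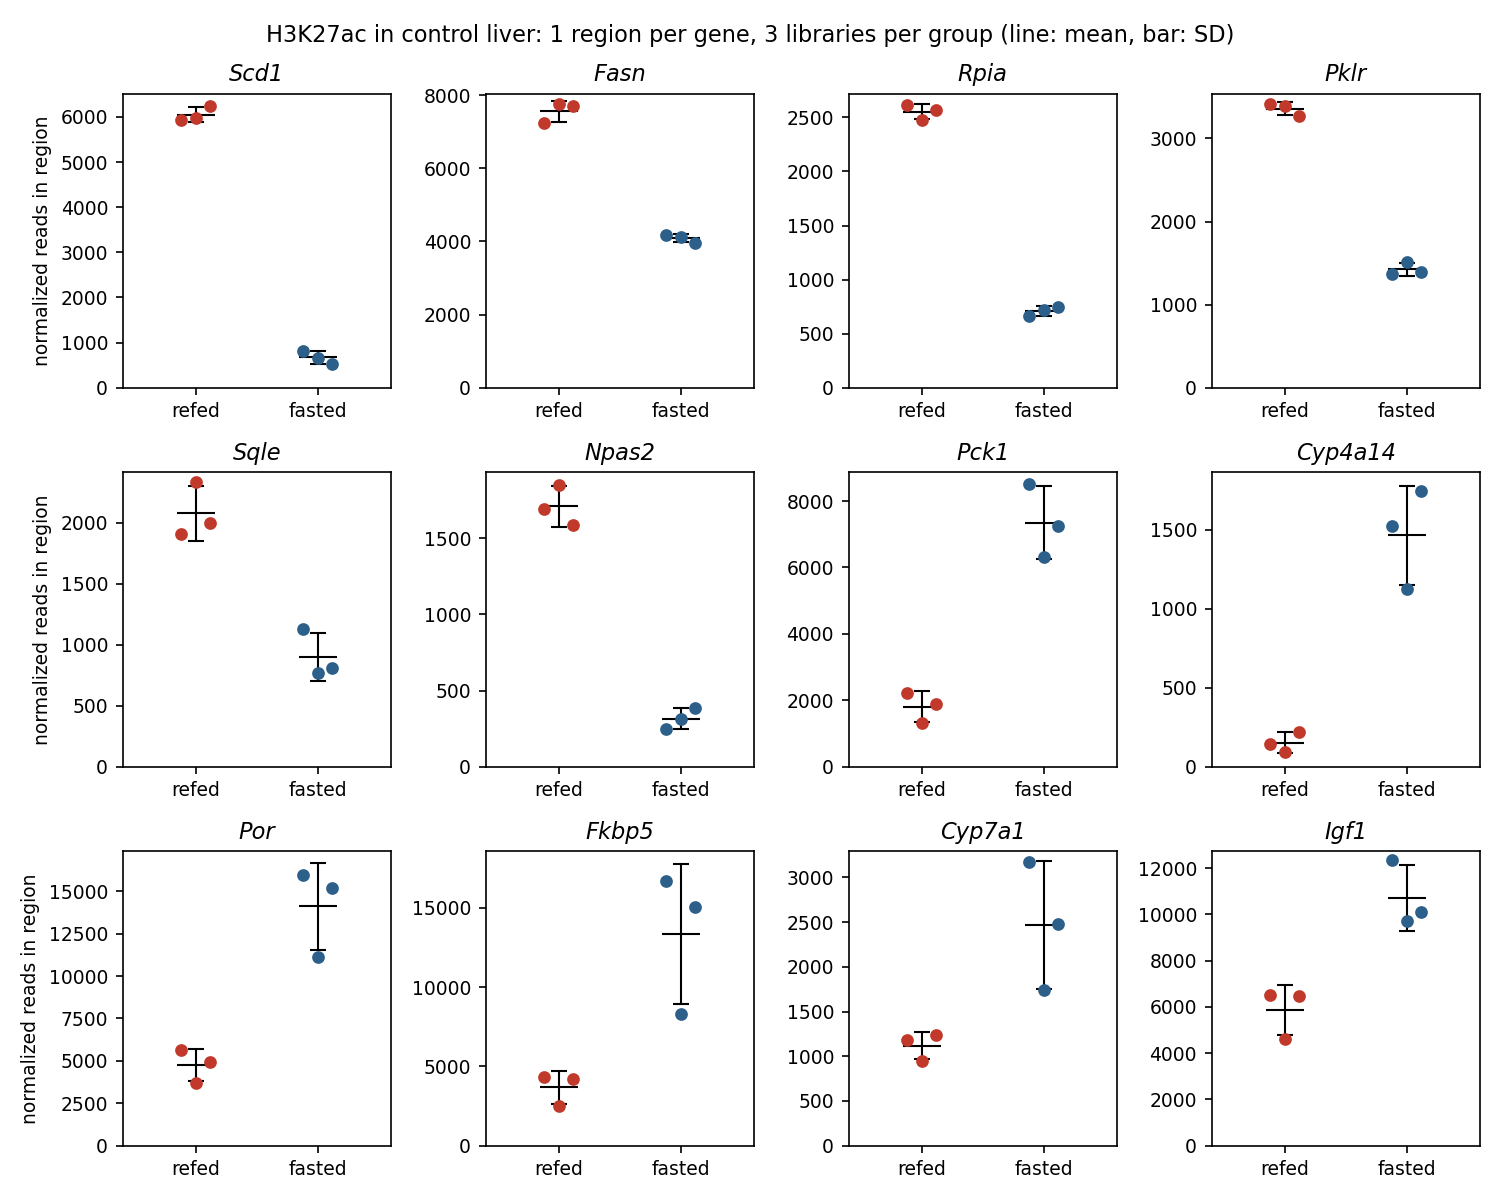
Normalized H3K27ac reads in the representing region of 12 genes, in 3 refed (red, left) and 3 fasted (blue, right) control libraries, with the mean and SD. Scd1, Fasn, Rpia, Pklr, Sqle and Npas2 are higher in all 3 refed libraries, and Pck1, Cyp4a14, Por, Fkbp5, Cyp7a1 and Igf1 are lower in all 3.

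Most genes of cholesterol synthesis rose at their fullest region. Of 26 genes 17 rose and 1 fell, with a median of 0.45, and without fasted library 1 or refed library 2 none fell. Over all 123 regions of these genes 35 rose and 20 fell. Sqle, squalene epoxidase, held 1904, 2330 and 1996 in refed livers, against 1128, 766 and 811 in fasted livers (1.22 ± 0.15, adjusted p = 1.89e-05). Fdps (1.10), Tm7sf2 (1.03), Lss (0.67), Cyp51 (0.56) and Sc5d (0.50) of the pathway rose, as did Insig1 (0.43), which retains SREBP in the ER. Srebf2, the gene of SREBP-2, changed by -0.06 and was not called. Of 15 LXR targets and sterol exporters 4 rose and 2 fell, the 4 being Scd1, Srebf1, lipoprotein lipase Lpl (0.98) and Pltp (0.35). The falls were the sterol exporter Abcg8 (-0.51) and Mylip (-0.27), and without fasted library 2 or 3 or refed library 1 or 3 the Mylip call was lost, and Pltp was not called without fasted library 2 or refed library 2.

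Genes of polyunsaturated fats and of lipid storage changed in both directions. Of 8 genes of polyunsaturated fatty acid synthesis 3 fell and 1 rose (2 with the region nearest the start). The desaturases Fads1 (-1.05) and Fads2 (-0.33) fell. The Fads1 region, 33.9 kb upstream, held 460, 399 and 496 in refed livers, against 1109, 925 and 798 in fasted livers. Of 21 genes of triglyceride synthesis and lipid droplets 3 rose and 6 fell. The falls included the lipases Pnpla2 (-0.36) and Lipe (-0.45), the lipin Lpin2 (-0.41) and the droplet protein Cidec (-0.43). Abhd5, the activator of Pnpla2, rose by 0.70 and the acyltransferase Mogat1 by 0.98.

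**Figure D3:**
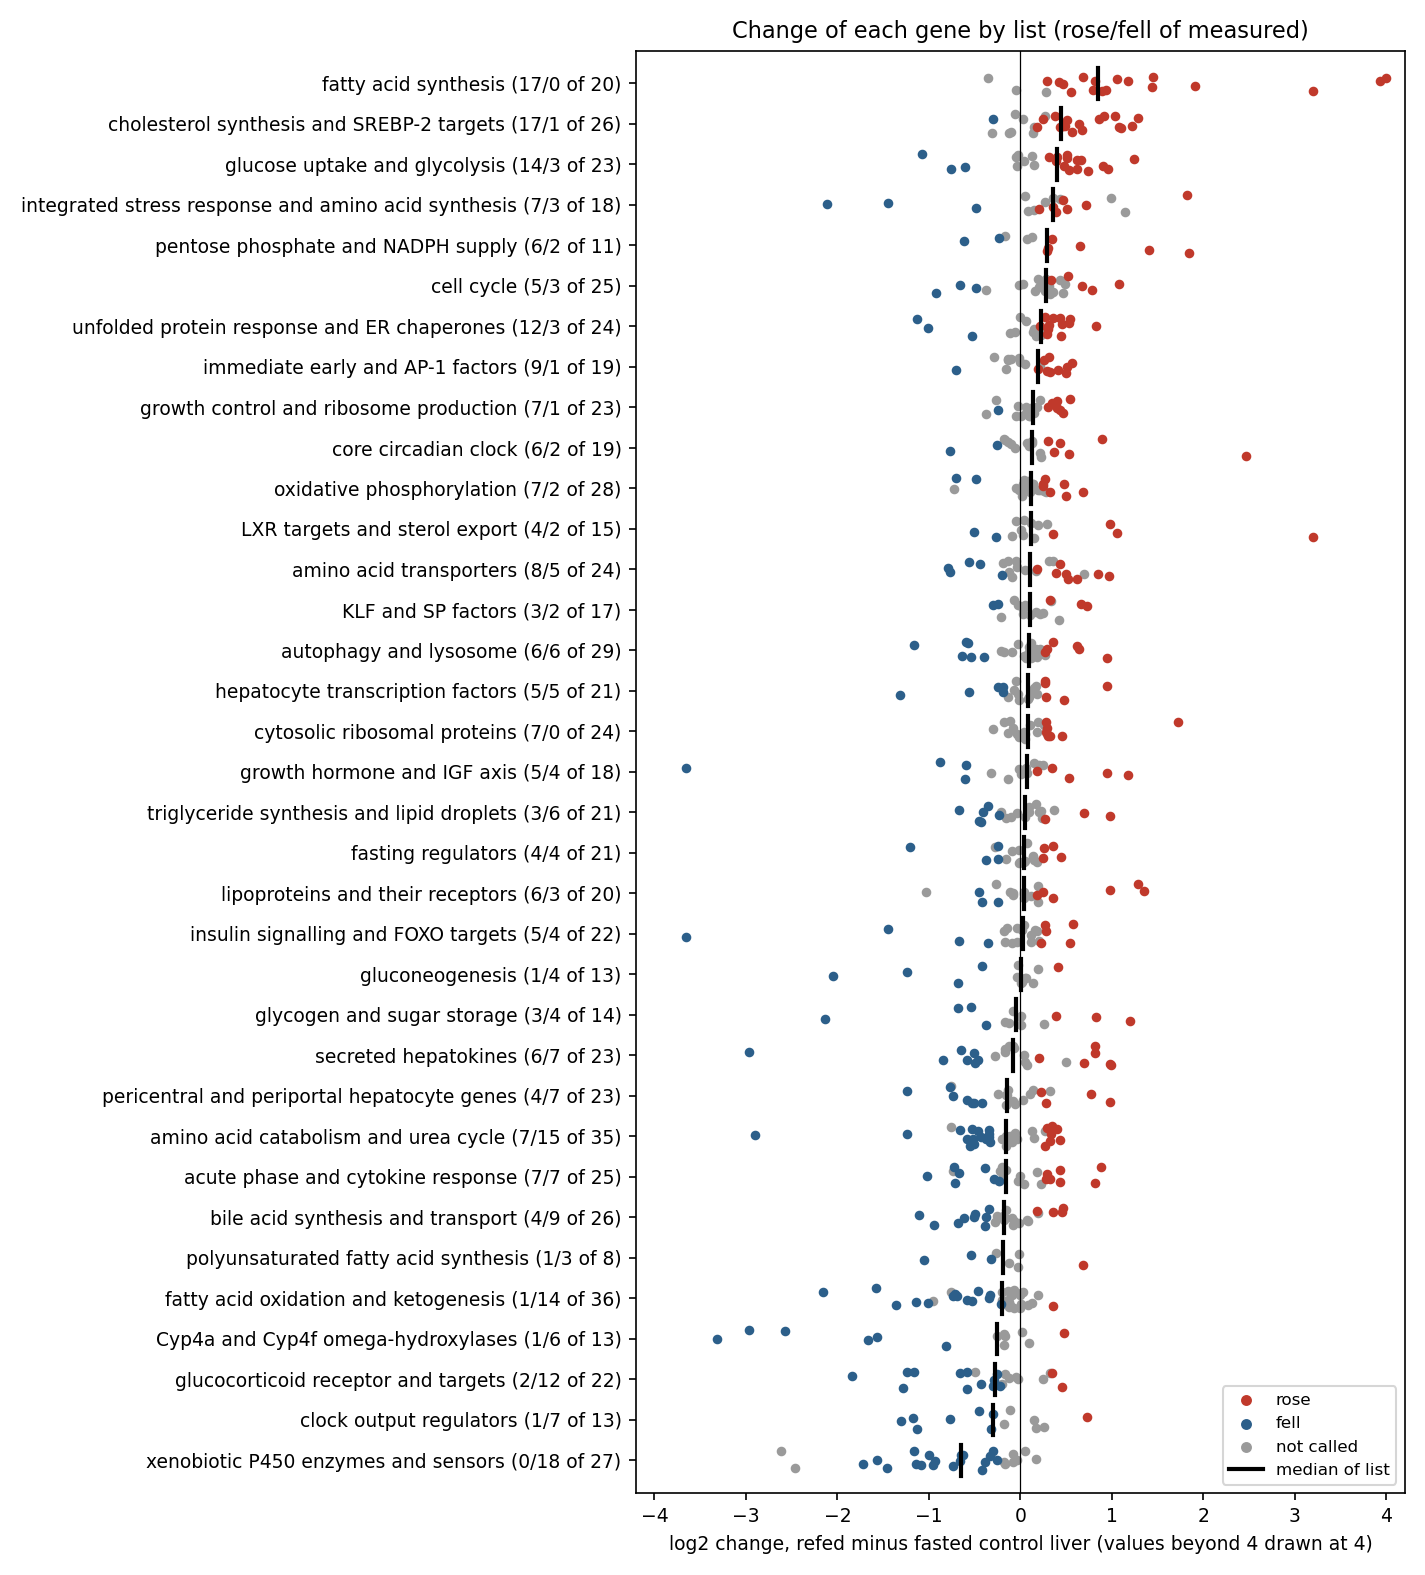
Log2 change of the representing region of each gene, refed minus fasted control liver, by gene group, with groups ordered by their median (black bar). Red points rose, blue points fell and grey points were not called. Fatty acid synthesis has the highest median (0.85) and xenobiotic P450 enzymes the lowest (-0.65), and values beyond 4 are drawn at 4.

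Fasting genes fell in part, and which of their regions fell differed from gene to gene. At Pck1 all 6 regions fell. The largest, 11 kb upstream (mm9 chromosome 2, 172959270 to 172975657), held 2229, 1317 and 1881 in refed livers, against 8500, 6313 and 7233 in fasted livers (-2.04 ± 0.19, adjusted p = 2.27e-06). The region over the Pck1 start fell by 1.29 ± 0.12, to 1962 ± 323 in refed livers, against 4771 ± 149 in fasted livers (SD, n = 3 each). At G6pc, glucose-6-phosphatase, the start region held 5495, 4203 and 4555 in refed livers, against 4767, 4169 and 4025 in fasted livers (0.13 ± 0.09, adjusted p = 0.279). Of 13 gluconeogenesis genes 4 fell (2 with the region nearest the start) and 1 rose, glycerol-3-phosphate dehydrogenase Gpd1 (0.41). The falls beside Pck1 were glycerol kinase Gk (-0.42), Ldhb (-0.68) and serine dehydratase Sds (-1.24).

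Ppargc1a, the coactivator PGC-1α, had 14 of 26 regions that fell and 1 that rose, although the region over its start held 1407, 1401 and 1320 in refed livers, against 1651, 1317 and 1656 in fasted livers (-0.16 ± 0.11, adjusted p = 0.308). An intronic region 8.36 kb inside the gene held 182, 211 and 210 in refed livers, against 798, 439 and 731 in fasted livers (-1.66 ± 0.20). The hormone gene Fgf21 likewise changed by 0.08 at its start (adjusted p = 0.706), while 3 regions downstream fell by 0.69, 0.82 and 1.41. Pdk4, the kinase that shuts off pyruvate dehydrogenase, changed by 0.15 at its start (adjusted p = 0.385), with 1 region on the upstream side that fell (-1.71) and 4 on the downstream side that rose (0.89 to 2.83). Of 21 fasting regulators 4 rose and 4 fell. Crtc2, a coactivator of CREB, held 888, 1069 and 850 in refed livers, against 2395, 1968 and 2092 in fasted livers (-1.20 ± 0.15). Creb3l3 fell by 0.38, and the nuclear receptor Nr4a1 (0.44) and the glucagon receptor Gcgr (0.26) rose. Only 2 of the 4 falls were called without fasted library 1 or refed library 2.

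In the group of insulin signalling and FOXO targets 5 of 22 rose and 4 fell, and 2 rose without fasted library 3 or refed library 3. With the region nearest the start 2 rose and 2 fell. A region of 73610 bp at 98.7 kb from the start of Ptpn1, a phosphatase of the insulin receptor, fell to 18289, 18321 and 19596 in refed livers, against 32216, 27955 and 29535 in fasted livers (-0.67 ± 0.06, adjusted p = 1.53e-06). The stress-induced Sesn2 fell by 1.45 and Sesn3, a FOXO target, rose by 0.58. Irs2, an adaptor of the insulin receptor, rose by 0.54 in an intron but changed by -0.68 at the region nearest its start, and the first call was lost without fasted library 2 or 3 or refed library 3. The single region of Igfbp1, 645 bp wide, was listed at 23.4, 0 and 0 in refed livers, against 31.1, 36.8 and 39.0 in fasted livers. It was called lower by limma (adjusted p = 0.00854) and not by edgeR (adjusted p = 0.0907).

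Falls outnumbered rises among the genes of fatty acid breakdown. Of 36 genes of oxidation and ketogenesis 14 fell and 1 rose, Ehhadh (0.36), with 2 rises without fasted library 1. Cpt1a, which admits fatty acids to mitochondria, held 5187, 3646 and 4073 in refed livers, against 8650, 6444 and 6465 in fasted livers (-0.74 ± 0.13, adjusted p = 0.000711). Enoyl-CoA isomerase Eci2 held 883, 444 and 783 in refed livers, against 3222, 2981 and 2826 in fasted livers (-2.15 ± 0.20), in a region 25.2 kb upstream. Vnn1 (-1.58), Acot1 (-1.37), Ech1 (-1.14), Pex11a (-1.01), Acadm (-0.58) and Hadha (-0.46) fell, although of the 6 Acadm regions 3 rose and 2 fell. The ω-hydroxylases of fatty acids held some of the largest falls. Of 13 Cyp4a and Cyp4f genes with their electron donor Por, 6 fell and 1 rose, Cyp4f14 (0.48). Cyp4a14 held 140, 95.6 and 222 in refed livers, against 1524, 1128 and 1744 in fasted livers (-3.32 ± 0.28, adjusted p = 8.29e-07). Cyp4a10 (-2.97), Cyp4a31 (-2.57) and Cyp4a32 (-1.67) of the same cluster fell, and reads of such near-identical genes are hard to tell apart. Por held 5614, 3704 and 4942 in refed livers, against 15967, 11146 and 15198 in fasted livers (-1.57 ± 0.14).

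Of 22 genes of the glucocorticoid receptor and its targets 12 fell and 2 rose (4 without fasted library 3), and with the region nearest the start 7 fell and 3 rose. Fkbp5, a chaperone of the receptor that glucocorticoids induce, held 4333, 2486 and 4232 in refed livers, against 16674, 8305 and 15077 in fasted livers (-1.84 ± 0.22, adjusted p = 2.18e-05). Refed library 2 and fasted library 2 were the lowest of their groups here and at Por. The metallothioneins Mt1 (-1.28) and Mt2 (-1.17), tyrosine aminotransferase Tat (-0.66, but 0.07 at the region nearest its start), tryptophan dioxygenase Tdo2 (-0.58) and the lipoprotein lipase inhibitor Angptl4 (-0.58) fell. Nr3c1, the receptor itself, rose over its start (0.45), and of its 41 regions 6 rose and 7 fell.

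Xenobiotic cytochrome P450 genes had the lowest median of the groups described here. Of 27 enzymes and sensors 18 fell and none rose (median -0.65). Cyp2b10, a target of CAR, held 649, 752 and 714 in refed livers, against 1658, 1356 and 1653 in fasted livers (-1.14 ± 0.13). Nr1i3, the gene of CAR, fell by 1.16, Cyp2c37 by 1.73, Cyp2c54 by 1.46, Cyp3a11 by 1.09 and Cyp2e1 by 0.74. Of 26 genes of bile acid synthesis and transport 9 fell and 4 rose (2 without fasted library 1 or 3 or any of the refed libraries). Cyp7a1, the rate-limiting enzyme of the classical pathway, fell in 6 of 7 regions. The representing region of Cyp7a1, 32.4 kb downstream of the start, held 1178, 946 and 1234 in refed livers, against 3172, 1746 and 2477 in fasted livers (-1.10 ± 0.18). The exporters Abcc3 (-0.94), Abcc2 (-0.68) and Abcb4 (-0.62) fell, and the bile salt exporter Abcb11 rose (0.46).

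Of 35 genes of amino acid breakdown 15 fell and 7 rose (4 rises without fasted library 3 or refed library 1). Beside Tat, Tdo2 and Sds, the falls included Hpd of tyrosine breakdown (-0.55), the urea cycle enzymes Cps1 (-0.51) and Otc (-0.33) and Gpt2 (-0.46). Asl was represented by a small region 9.89 kb downstream with 5.85, 12.1 and 12.4 in refed livers, against 73.2, 57.0 and 116 in fasted livers. Fah (0.43) and Cbs (0.40) rose. Of 24 amino acid transporters 8 rose and 5 fell (3 without fasted library 1 or refed library 2). Slc7a5 (0.97), Slc1a4 (0.85) and Slc6a9 (0.62) rose, and Slc38a4 (-0.79) and the glutamate transporter Slc1a2 (-0.77) fell. Of 18 genes of the integrated stress response and amino acid synthesis 7 rose and 3 fell, and with the region nearest the start 8 rose and none fell. The mitochondrial folate enzyme Mthfd2 (1.82) and the tRNA synthetases Sars (0.72) and Aars (0.47) rose, and the stress inhibitor Ddit4 fell (-0.49). Atf4, the factor at the head of the response, changed by 0.08 and was not called.

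Chaperone genes of the ER changed by small amounts. Among 24 measured chaperones and sensors of the unfolded protein response there were 12 rises and 3 falls, with a median of 0.22. With the region nearest the start there were 12 rises and 1 fall, and over all 94 regions 23 rises and 21 falls. Ern1, the stress sensor IRE1α, held 5598, 5379 and 5371 in refed livers, against 3589, 3933 and 3775 in fasted livers (0.53 ± 0.06, adjusted p = 7.63e-06). Sdf2l1 (0.83), Pdia6 (0.54), Manf (0.45), Hyou1 (0.44), Calr (0.35) and Hspa5 (0.31) rose. The falls were Dnajc12 (-1.13), Herpud1 (-0.53) and Creld2 (-1.01), and the Dnajc12 and Creld2 regions lie 16.9 and 12.3 kb from the start. Of 23 genes of growth control and ribosome production 7 rose and 1 fell, with 4 rises without fasted library 1 or refed library 1, and no fall without refed library 1 or any fasted library. Max (0.54), the partner of MYC, and the nucleolar protein Nop56 (0.47) rose. Of 24 ribosomal protein genes 7 rose and none fell, but 2 rose without refed library 2, 3 without fasted library 1 and 4 without fasted library 2 or refed library 3. Of 28 oxidative phosphorylation genes 7 rose and 2 fell (4 rises without fasted library 1 or refed library 2 or 3, and no fall with the region nearest the start), among them Cox4i1 (0.50) and Ndufb8 (0.47).

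Clock genes changed in both directions. Of 19 core clock genes 6 rose and 2 fell (1 without fasted library 1 or refed library 1, where the Per1 call was lost). Npas2, the paralogue of CLOCK, held 1692, 1852 and 1587 in refed livers, against 244, 316 and 382 in fasted livers (2.46 ± 0.20, adjusted p = 6.14e-07). Arntl, the gene of BMAL1, held 1508, 1620 and 1327 in refed livers, against 752, 694 and 965 in fasted livers (0.89 ± 0.13). The repressors Cry1 (0.53) and Per2 (0.43) and the receptor Rora (0.30) rose. Ciart held 1102, 1112 and 1491 in refed livers, against 2459, 1779 and 2056 in fasted livers (-0.77 ± 0.15). Clock (0.23) and Nr1d1 (0.07), the gene of REV-ERBα, were not called. Of 13 output regulators 7 fell (4 with the region nearest the start) and 1 rose, Klf10 (0.73). The falls included Nampt, which makes NAD (-1.31, but 0.11 at the region nearest its start), Bhlhe40 (-1.18), Usp2 (-1.13) and the deadenylase Noct (-0.77). All mice were killed in the same hour, but the refed mice had eaten through the night and the fasted mice had not.

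Hormone axes and secreted proteins were mixed. Of 18 genes of the growth hormone and IGF axis 5 rose and 4 fell (3 rises without fasted library 3 or refed library 1 or 3). Igf1 held 6500, 4599 and 6488 in refed livers, against 12331, 9707 and 10092 in fasted livers (-0.88 ± 0.15, adjusted p = 0.000352), in an intronic region 45.1 kb from the start. Of the 13 Igf1 regions 4 rose and 4 fell. Ghr, the receptor (-0.60, but 0.05 at the region nearest its start), and Igfbp2 (-0.60) fell, and Cish, a STAT5 target that damps the receptor, rose (1.17). Of 23 hepatokines 6 rose and 7 fell. Angptl8, the feeding-induced inhibitor of lipoprotein lipase, held 4922, 4181 and 4726 in refed livers, against 2459, 2588 and 1965 in fasted livers (0.99 ± 0.10). Rbp4 (-0.65), Fst (-0.84) and Selenop (-0.51) fell. Of 20 lipoprotein genes 6 rose and 3 fell (5 fell without refed library 1 and 1 without refed library 2). Tm6sf2, which loads lipid on VLDL, rose by 1.35 and Apoa2 fell by 0.46. Of 25 acute phase genes 7 rose and 7 fell, with 3 rises without fasted library 3 and 4 without fasted library 2 or refed library 1. Orm1 (0.81) and Itih4 (0.43) rose, and the serum amyloids Saa3 (-1.02) and Saa1 (-0.67) and the receptor Il6ra (-0.73) fell.

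Of 21 hepatocyte transcription factors 5 rose and 5 fell, while over all their 218 regions 20 rose and 60 fell. Onecut1 (0.95) and Gata4 (0.47) rose, and Esrrg (-1.32, but 0.89 at the region nearest its start) and Cebpd (-0.56) fell. Of 17 KLF and SP factors 3 rose and 2 fell, Klf15 and Klf9, and without fasted library 1 or refed library 2 the Klf15 call was lost, and over all 185 regions 24 rose and 40 fell. Klf7 (0.66) and Klf6 (0.33) rose. Of 19 immediate early and AP-1 factors 9 rose and 1 fell. Maff (0.56), Egr2 (0.51), Atf3 (0.50) and Jun (0.31) rose, each by less than 2-fold. Of 29 genes of autophagy and the lysosome 6 rose and 6 fell. The kinase Ulk1, which starts autophagy, held 8017, 7011 and 7313 in refed livers, against 3692, 3597 and 4349 in fasted livers (0.94 ± 0.08, adjusted p = 8.33e-07). The receptor Sqstm1 (0.64) and the regulator Tfeb (0.29) rose, and the membrane proteins Gabarapl1 (-0.59) and Map1lc3b (-0.40), the ligase Atg7 (-0.58) and the protease Ctsc (-1.16) fell. Of 23 zonated genes 7 fell and 4 rose, with 2 rises without fasted library 1 or 3 or refed library 1. Pericentral Cyp2e1 and Oat (-0.53) and periportal Cps1 and Pigr (-0.59) were among the falls. The 4 rises were all at pericentral genes, among them Glul, which had another sign at the region nearest its start. Of 25 cell cycle genes 5 rose and 3 fell, with 3 rises without fasted library 1 or refed library 3. Mcm3 (0.79) rose and the cyclins Ccne2 (-0.92) and Ccnd3 (-0.49) fell.

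Some markers of other liver cells were called too, where over all genes 21.2% rose and 12.2% fell. The share of rises was above that over all genes only for cholangiocyte markers. The share of falls was above it for endothelial markers and for the few neutrophil and acinar markers. Of 10 cholangiocyte markers 5 rose and none fell (3 rose without refed library 2), and their summed level was 5697 to 6322 in refed and 4214 to 4721 in fasted libraries. Tspan8 held 354, 343 and 337 in refed livers, against 58.5, 87.3 and 73.5 in fasted livers (2.24 ± 0.17), in a region 38.1 kb upstream. Elf3 (1.35) and Epcam (1.00) rose, but Epcam had another sign at the region nearest its start. With that region for each gene, 4 cholangiocyte markers rose. Of 13 macrophage markers 2 rose, Clec7a (1.48) and Cx3cr1 (0.85), while Adgre1, the defining F4/80 gene, stayed low, at a mean of 20.4 in refed and 25.7 in fasted livers. Of 21 endothelial markers 4 rose and 4 fell, Egfl7 by 0.55 and Stab2 by -1.37 at the ends (1 rise without fasted library 1 or 3 or refed library 2, and 2 without refed library 3). Of 17 stellate markers 2 rose and 1 fell, Col14a1 (-0.72), and without fasted library 1 or 3 or refed library 1 or 2 none rose, and without refed library 3 only 1 did. Of 9 lymphocyte markers none was called by limma, 2 fell without refed library 2 and 1 rose without fasted library 2. Of 5 neutrophil markers 2 fell, and without fasted library 1 or 3 or refed library 2 or 3 only 1 did. Of 3 measured acinar markers 1 fell, Ctrb1 (-0.42). The summed levels of the macrophage markers were 3509 to 3774 in refed and 2770 to 3440 in fasted libraries, and those of the endothelial markers 28826 to 30361 in refed and 28096 to 28392 in fasted libraries. The sums were lower in refed liver for neutrophil markers (930 to 1017 in refed and 1243 to 1433 in fasted libraries) and for acinar markers (1843 to 2425 in refed and 2578 to 2876 in fasted libraries). None of these 4 pairs of ranges overlapped, whereas those of the stellate markers did (6377 to 7003 in refed and 6955 to 7535 in fasted libraries), as did those of the lymphocyte markers (2957 to 3125 in refed and 2621 to 3082 in fasted libraries). Such a lack of overlap is frequent in these data. Over all single regions the refed libraries lay above the fasted ones in 19.1% and below them in 23.3%. The higher endothelial sum rests on the wide Egfl7 region, which averaged 8344 in refed and 5688 in fasted livers. Gpr182 (5832 in refed and 6932 in fasted livers) and Stab2 (550 and 1469) went the other way. Most of the neutrophil sum was Elane, at a mean of 774 in refed and 1109 in fasted livers. Ly6g was lower too (47.8 in refed and 111 in fasted livers), and Csf3r was higher (67.6 and 43.4). Most of the acinar sum was Ctrb1 (1855 in refed and 2476 in fasted livers). Cela2a (271 and 216) and Cela1 (22.0 and 17.6) averaged higher in refed livers. Fewer endothelial (1), neutrophil (1) and acinar markers (0) fell, and fewer stellate (1) and macrophage markers (1) rose, at the region nearest the start. Whether a shift in cell types has a part in the changes of the hepatocyte genes was not tested.

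By difference in reads, the largest losses were those at Ptpn1, Fkbp5 and Por described above, and further regions are given here that were chosen after their values were seen. A region of 35661 bp 56.3 kb upstream of Artn (mm9 chromosome 4, 117640848 to 117676508) held 16624, 17378 and 16572 in refed livers, against 4036, 4831 and 3941 in fasted livers (1.99 ± 0.08, adjusted p = 1.27e-09). A region over the start of Zmiz1, 82732 bp wide, averaged 32176 ± 2866 in refed livers and 22783 ± 714 in fasted livers (SD, n = 3 each). Per2 averaged 17209 ± 994 in refed and 12804 ± 873 in fasted livers. Among the losses, Ahcy of the methionine cycle averaged 8319 ± 734 in refed and 16620 ± 2602 in fasted livers (-0.99). Slc25a13, the aspartate-glutamate carrier of the urea cycle, averaged 7322 ± 807 in refed and 15049 ± 651 in fasted livers (-1.04).

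The largest fold changes were at regions that were nearly empty in one state. A region near Taar8c held 575, 632 and 516 in refed livers, against 0, 0 and 4.59 in fasted livers. Regions near Pdcl3 (295, 309 and 259 in refed livers) and in an intron of Reck (249, 259 and 236 in refed livers) were listed at 0 in all 3 fasted livers. On the other side, regions near Fendrr and Adam24 were listed at 0 in all 3 refed livers, against 136, 380 and 220 in fasted livers for Fendrr and 230, 132 and 224 for Adam24. In all, 80 regions that rose were listed at 0 in every fasted library, and 100 that fell were listed at 0 in every refed library. Whether input reads were subtracted before these values were set is not stated.

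Changed regions lay in runs along the genome, and the runs and genes named here were chosen after their values were seen. Neighbouring called regions of the same direction at most 50 kb apart formed 1478 runs of rises and 2177 runs of falls, of which 109 and 308 held at least 5 regions. The longest run of falls held 23 regions over the Cyp4a cluster (mm9 chromosome 4, 115162698 to 115276054), with summed means of 1398 in refed and 7478 in fasted livers. The longest run of rises held 17 regions around Dph2, Ipo13 and Artn, with summed means of 20853 in refed and 5619 in fasted livers. A run of 12 rises joined Pdcl3 and Npas2 over 220 kb, a run of 10 rises lay around Scd4 and Scd1, with 12463 in refed and 2214 in fasted livers, and another of 10 joined Fdps and Pklr. A run of 13 falls lay over Fads2, with 3375 in refed and 5995 in fasted livers.

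**Figure D4:**
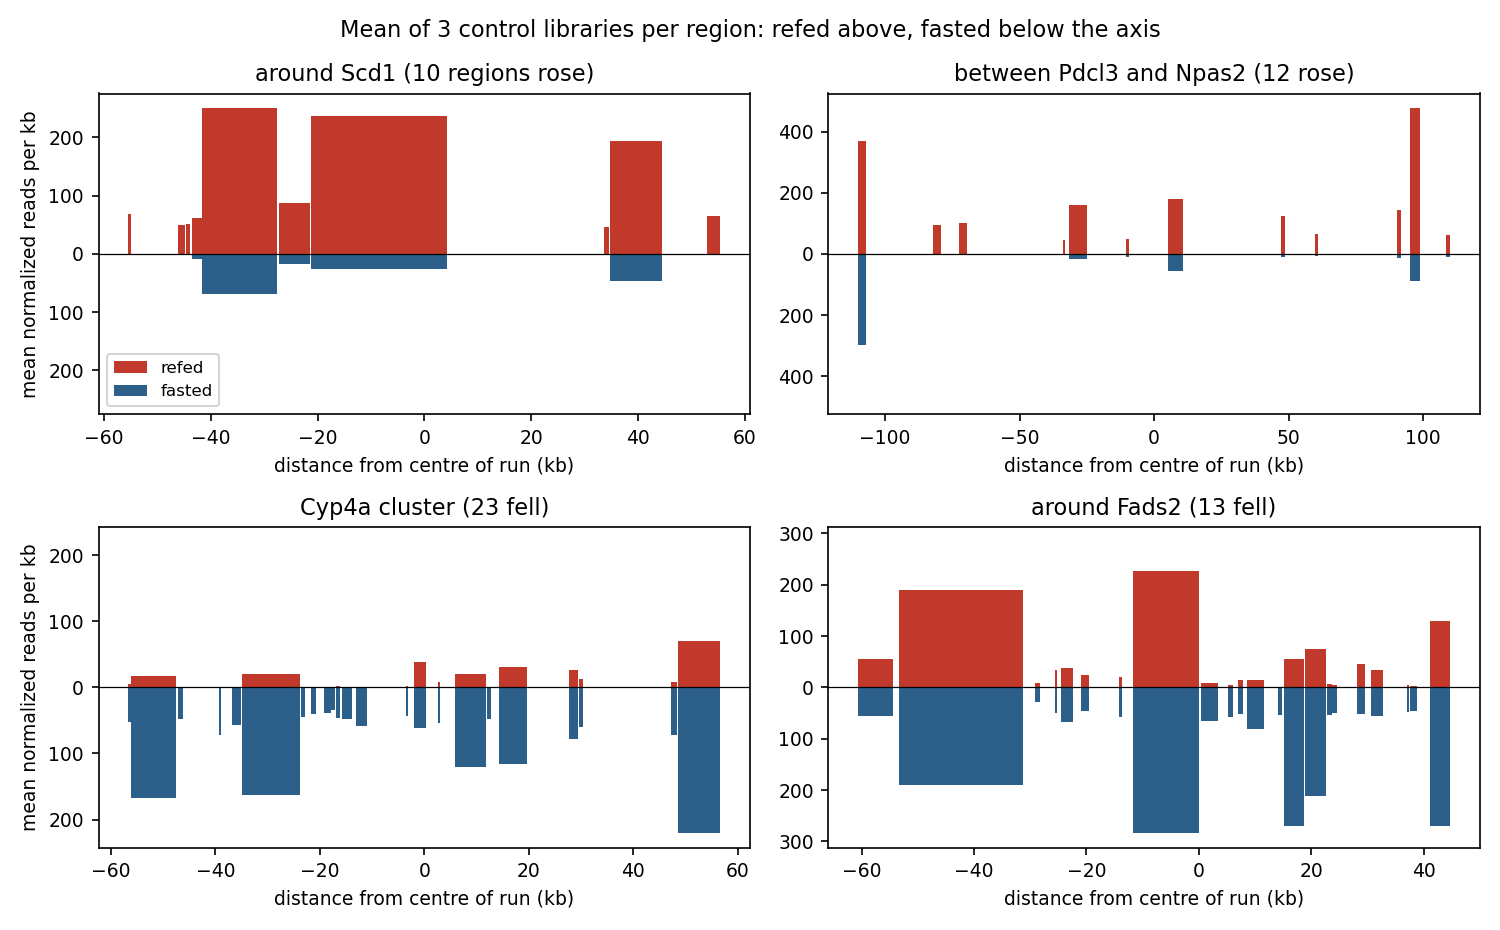
Mean normalized reads per kb of region in 3 refed (red, upwards) and 3 fasted (blue, downwards) control libraries, against distance from the centre of 4 runs in kb; the width of a bar is that of its region. The Scd1 and Npas2 runs are higher in refed liver, and the Cyp4a and Fads2 runs are higher in fasted liver.

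Some genes changed at many regions, with or without the one at their start. Nfia had 34 of 48 regions that fell and 2 that rose, and its start region changed by -0.10 and was not called. Nfib, of the same factor family, had 19 of 36 that fell and none that rose, with 0.02 over the start. Klf9 had 19 of 20 that fell, its start among them (-0.30). Atp2b2, a calcium pump, rose at all 15 of its regions, and the one over its start held 3737, 3526 and 3806 in refed livers, against 386, 416 and 584 in fasted livers (3.02 ± 0.19, adjusted p = 6.15e-08). Artn rose at 15 of 16. Nectin1 had 7 that rose and 7 that fell of 24.

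The same contrast in knockout liver, refed against fasted, called 8466 rises (13.3%) and 7252 falls (11.4%). Of the control rises 65.1% also rose in knockout liver, of the control falls 51.2% also fell, and 96.9% and 94.4% had the same sign. Of the knockout rises 64.4% and of the knockout falls 75.5% were called in the same direction in control liver. The knockout libraries share no sample with the controls, but they share the estimate of the spread. Acetylation of the floxed gene does not test its deletion, since the labels do not name the removed exons: over the Gata4 start the refeeding change was 0.43 in knockout and 0.47 in control liver. A test of the difference of the 2 changes called 15 of 63686 regions (0.0236%) by limma, and 6073 had an unadjusted p under 0.05. That count rested on single libraries: it was 148 without control fasted library 2, 58 without control refed library 1, 42 without control fasted library 1 and 26 without control refed library 2, and edgeR called 10. An intronic region near Trim14, a gene of antiviral signalling (mm9 chromosome 4, 46550279 to 46554075), held 905, 878 and 793 in refed and 117, 154 and 109 in fasted knockout livers. It held 914, 932 and 807 in refed and 418, 343 and 418 in fasted control livers, so its rise was larger in knockout (2.77) than in control liver (1.17). The region near Ppil1 fell in knockout liver (-0.42), to 3312, 2771 and 2741 in refed against 3917, 3688 and 4163 in fasted livers. It rose in control liver (0.45), to 4200, 3768 and 4165 in refed against 3335, 2750 and 2829 in fasted livers.

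**Figure D5:**
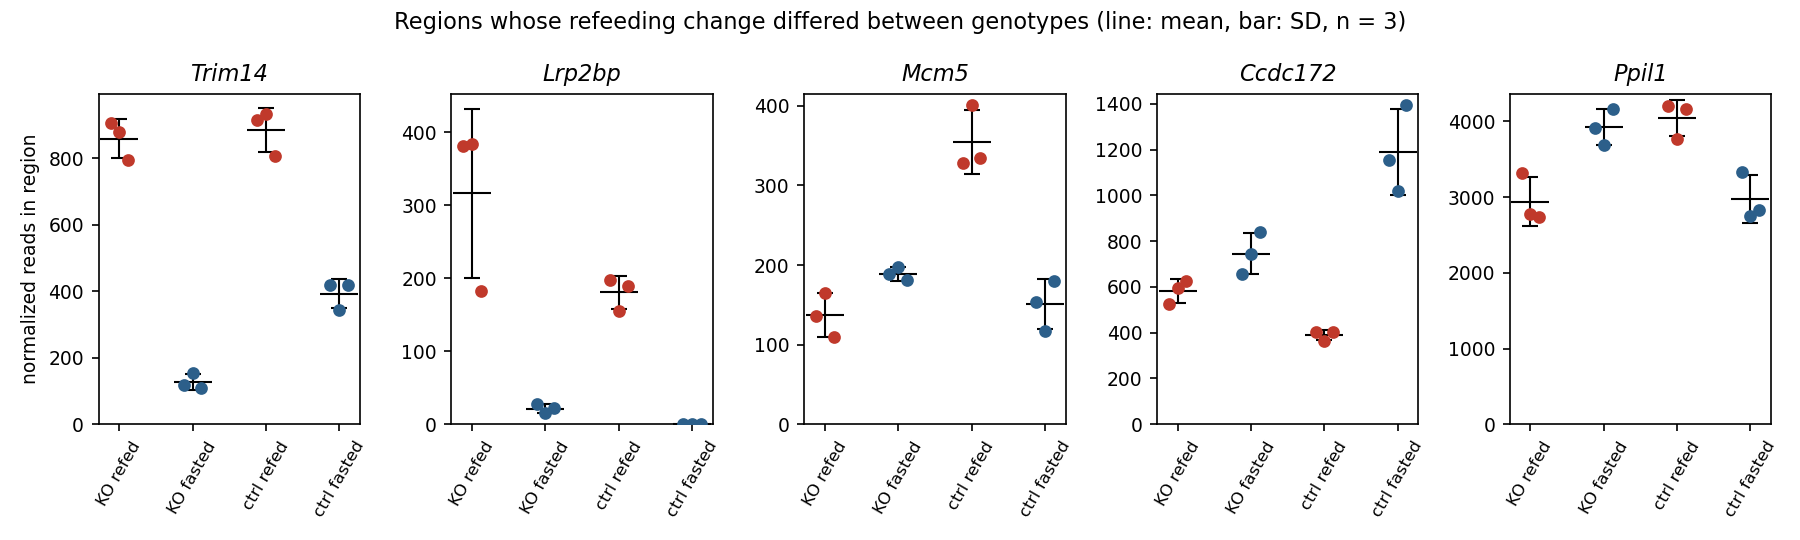
Normalized reads in 5 regions whose refeeding change differed between genotypes, in 3 knockout refed, 3 knockout fasted, 3 control refed and 3 control fasted libraries, with the mean and SD. The Trim14 rise is larger in knockout liver, the Ccdc172 fall is larger in control liver, and Ppil1 goes opposite ways.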

How the data were processed

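H3K27ac ChIP-seq signal was measured in 12 mouse liver libraries, 3 for each combination of Gata4 genotype and feeding state. The authors deposited 1 table of 63686 regions with a normalized read signal per library, scaled to the same total in each, and an adjusted p-value column that is used here only as a description. The build was mm9, and the tools named are Bowtie2 and SAMtools, Trim Galore with FastQC, deepTools and bedtools, MACS2, HOMER, and DiffBind with edgeR, per the submitters' processing notes. Tool versions and any subtraction of input are not stated. Input libraries are not analysed here.

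In every library all values were whole multiples of the value of 1 read (100% within 0.01 of a whole number), which gave 22.2 to 30.4 M reads per control library. Regions were tested with limma 3.58.1 (R 4.3.3) on log2(value + 1) in all 12 libraries, with 4 group means, a mean-variance trend and Benjamini-Hochberg adjustment over all regions at 0.05. A pseudocount of 1 lessens the change of low regions. The script was tested on simulated data.

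Genes are the nearest start sites in the deposited annotation, and 102 rows with a symbol turned into a date were restored by Entrez ID (21 genes). A gene is represented by its region with the highest mean. The naming rule took a set of anchor genes, from each list the 6 genes of lowest adjusted p and the one of highest level, the 12 largest rises and falls among well-filled regions whose groups do not overlap, the 8 genes with most regions called in each direction and in both, and the 8 largest genotype differences, without predicted genes. Other genes named were chosen after their values were seen. Members and lists were chosen with earlier results of these data known. The anchors Hmgcs1 and Dbp are not analysed here, and some list members that count in their lists are not reported by name. Alternatives were edgeR 4.0.16 on the recovered reads, other scalings, pseudocounts, filters, array weights, the 6 control libraries alone, the letter of the library as a block, and each library left out in turn. Deviations from the group mean correlated weakly between control samples with the same letter (0.058, 0.046 and 0.032). So few libraries cannot settle whether the letters pair the groups.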

Additional observations from a re-analysis of the deposited data

Results flagged for a closer look

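Of the 15 regions where the limma test called a different refeeding change in knockout and control liver, 5 met the level and overlap conditions of the naming rule and do not bear a predicted name. Among those left out by name, a region near Gm13490 rose in control liver (2.20) and fell in knockout liver (-0.79). Differences are the control change minus the knockout change on the log2 scale. At Lrp2bp the difference was 3.73 (adjusted p = 0.0124), with 381, 385 and 183 normalized reads in refed and 27.1, 15.4 and 22.2 in fasted knockout livers, and 198, 155 and 189 in refed control livers while the fasted control livers were listed at 0. At Mcm5 it was 1.73 (adjusted p = 0.0291), with 136, 165 and 110 in refed and 189, 198 and 181 in fasted knockout livers, and 328, 401 and 335 in refed and 154, 118 and 180 in fasted control livers. At Trim14 it was -1.60 (adjusted p = 0.0105), and the call held in all 14 settings. At Ccdc172 it was -1.24 (adjusted p = 0.0259), with a change of -0.35 in knockout liver and a fall of 1.59 in control liver. At Ppil1 it was 0.87 (adjusted p = 0.0291). The Lrp2bp call was lost with edgeR, where the difference was 6.71, and with a pseudocount of 5, where it was 1.66, so its size moves with the value set in for the 3 libraries at 0 and is no bound. The Mcm5 call was lost without refed library 2 or 3 of the controls. The Ccdc172 and Ppil1 calls were each lost under 4 settings, among them edgeR and the one without control fasted library 3.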

How the results depend on the processing

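Over 16 settings the regions called ranged from 6297 to 9403 higher and from 8681 to 10957 lower, and no called region switched direction. edgeR on the recovered reads called 8903 higher and 10441 lower. The higher share of the calls was 43.9% and ranged from 39.99% to 49.3%. With the letter of the library as a replicate block over the 6 control libraries, 7733 were higher and 9797 lower. The same 6 libraries without the block gave 7162 higher and 9364 lower. Of 255 named genes that were called, 218 were called in all 16 settings and 37 were lost in some. The 15 regions that differed between genotypes became 71 with array weights and 28 with a pseudocount of 5, and 10 to 148 with a library left out. Where the region nearest the start stood for the gene in place of the highest one, a different region of the gene with another sign was read for 27 genes: Irs2 -0.68, Elovl5 0.85, Ptpn1 0.12, Grb14 0.29, Tat 0.070, Nampt 0.11, Psat1 1.09, Creld2 0.41, Ghr 0.050, Esrrg 0.89, Cebpa 0.083, Atp5o 0.19, Ndufv1 0.21, Glul -0.46, Kdr 0.38, Stab2 0.16, Ly6g 2.27, Epcam -0.22, Ctrb1 0.32, Plch2 1.07, Clcn7 -0.93, Gpc6 0.99, Dynlrb2 0.66, Arhgef3 0.065, Klf12 2.05, Nedd4l 0.48 and Rad51b 3.90. The cause of the other shifts was not tested. Of regions up to 500 bp wide 2.94% were called higher and 9.00% lower, and the part of depth in this was not tested. Intervals cover these libraries only.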
